A study of Mus musculus with 2 samples.

Results

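The CC chemokines are small secreted proteins that attract leukocytes, named for a pair of adjacent cysteines near the start of the mature protein. The 8 genes described here (Ccl2, Ccl3, Ccl4, Ccl5, Ccl6, Ccl7, Ccl9 and Ccl12) were chosen by symbol, were each present as 1 row among 32589 features, and belong to a family with 30 rows whose symbol starts with Ccl and a digit. They were read in 2 libraries of microglia, the resident macrophages of the brain, sorted from the prefrontal cortex of C57BL/6 mice by low CD45 and by CD11b. The vehicle library came from mice given vehicle, and the corticosterone library from mice given corticosterone, the main glucocorticoid of rodents, by oral gavage as a model of depression with raised glucocorticoid. No genetic change is named in either group, and the age, sex and number of the animals, the dose and the duration are not given in the sources used here. There was 1 library per group, so the values compare 2 libraries, no test between treatments was possible, and every interval below covers counting error only.

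CC chemokines act through G protein-coupled receptors on the cells they attract, and several ligands share a receptor. Ccl2, Ccl7 and Ccl12 bind Ccr2 and draw monocytes out of the blood. Ccl3 and Ccl5 bind Ccr1, and with Ccl4 they attract macrophages and T cells. Ccl6 and Ccl9 are rodent ligands of Ccr1 with a longer amino-terminal part. In macrophages and microglia the genes of Ccl2, Ccl3, Ccl4, Ccl7 and Ccl12 are induced within a short time through NF-kB, and enzymatic digestion of brain tissue at body temperature, which the labels describe for both libraries, is known to induce them as well.

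All 8 genes lie on mouse chromosome 11 (GRCm38, GENCODE annotation), in 2 groups 1422.38 kb apart. Ccl2 (chr11:82035571-82037453, plus strand), Ccl7 (chr11:82045712-82047525, plus strand) and Ccl12 (chr11:82101845-82103400, plus strand) form one group. Ccl5 (chr11:83525778-83530518, minus strand), Ccl9 (chr11:83572919-83578636, minus strand), Ccl6 (chr11:83587882-83593087, minus strand), Ccl3 (chr11:83647844-83649355, minus strand) and Ccl4 (chr11:83662584-83664683, plus strand) form the other. The coding stretch around the adjacent cysteine codons, in capitals with 6 codons on each side, is the feature that names the family and was found a single time in each of the 8 coding sequences, which are spread over 3 exons, or 4 in Ccl6 and Ccl9.
Ccl2: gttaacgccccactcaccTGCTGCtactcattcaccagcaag
Ccl7: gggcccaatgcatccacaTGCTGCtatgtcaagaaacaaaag
Ccl12: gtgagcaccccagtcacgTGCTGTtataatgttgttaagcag
Ccl3: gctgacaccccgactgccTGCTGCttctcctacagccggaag
Ccl4: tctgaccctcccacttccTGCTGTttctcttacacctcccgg
Ccl5: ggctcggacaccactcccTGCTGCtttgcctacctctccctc
Ccl6: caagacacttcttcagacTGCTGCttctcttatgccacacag
Ccl9: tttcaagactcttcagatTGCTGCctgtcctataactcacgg

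The cysteine pair stands at codons 50 and 51 in Ccl6 and at codons 57 and 58 in Ccl9, against codons 33 and 34 or 34 and 35 in the other 6 genes. The highest identity between coding sequences was 68.1%, for Ccl3 and Ccl4, followed by 64.6% for Ccl6 and Ccl9. The longest run of identical bases shared by transcripts of 2 of the genes was 25 bases, in Ccl6 and Ccl9, and 23 bases in Ccl2 and Ccl7. How the submitters' counting treated reads that match more than 1 gene is not given in the sources used here.

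The vehicle library held 10555 barcodes and the corticosterone library 18113, of which 10500 and 17883 passed the filters, with a median of 3220.5 and 3961 UMIs (unique molecular identifiers, which count each captured transcript a single time). The libraries shared 104 barcode sequences, against 216.09 expected by chance from the barcode design, and the share of mitochondrial UMIs had a median of 2.67% and 4.20%. Clustering without any Ccl gene gave 7926 and 15206 microglia-like cells, 75.5% and 85.0% of the cells kept. All 10 microglia markers were present in them, at a summed 32087 and 27989 CPM (UMIs per 1e6 UMIs of the class), against 316 and 326 CPM for the 9 markers of border-associated macrophages, which sit around vessels and in the meninges, and 15.5 and 25.6 CPM for the 8 monocyte markers. The largest sums for other cell types were those of the 11 neutrophil markers, at 923 and 690 CPM (of which Csf3r gave 464 and 551 CPM), and of the 6 B cell markers, at 441 and 407 CPM (of which Ighm gave 413 and 388 CPM), with Ms4a1 and Pax5 at 0 in vehicle cells. Their part in the results was not tested. Different clusters held the class in the 2 libraries: 7458 of the vehicle cells lay in cluster 1, and 10170 of the corticosterone cells in cluster 0 and 4145 in cluster 2.

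Within microglia-like cells the CC chemokines did not move as 1 group. Ccl2 and Ccl5 were higher in the corticosterone library by at least 1.5 times, Ccl6 and Ccl9 were lower by at least that, and Ccl3, Ccl4, Ccl7 and Ccl12 differed by less. All 8 passed the minimum of 5 CPM over the mean of the libraries, Ccl5 only through its level in the corticosterone library. Of 9678 genes that passed, 6.01% were higher by at least 1.5 times and 6.48% were lower, and the median log2 ratio of corticosterone over vehicle was -0.01. Size factors of DESeq2 turned these shares into 8.58% and 4.56% and raised that median by 0.11, so no direction was read from differences under this size. Together the 8 genes gave 1.06% of the UMIs of vehicle microglia-like cells and 1.16% of those of corticosterone cells.

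**Figure D1:**
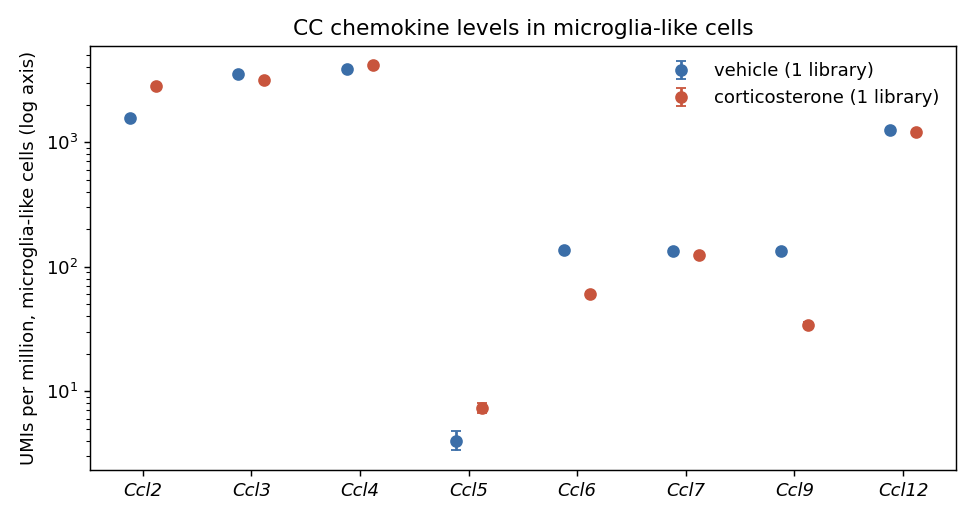
Level of each CC chemokine in microglia-like cells, in CPM on a log axis, in the vehicle (blue) and the corticosterone library (red). Bars are exact Poisson intervals at the 95% level and are mostly smaller than the points. Ccl2 and Ccl5 sit higher in the corticosterone library, Ccl6 and Ccl9 lower, and the other 4 lie close together.

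The ligands of Ccr2 took different courses. Ccl2, the main monocyte attractant, stood at 1560 CPM in the vehicle library (exact Poisson interval 1546 to 1573) and at 2839 CPM in the corticosterone library (2826 to 2851). This was 1.82 times the vehicle level, a log2 ratio of 0.86 (0.85 to 0.88), and the ratio lay between 0.68 and 0.97 in all 12 alternatives that were run for it. Ccl7, the gene next to Ccl2, was at 134 CPM (130 to 138) and 124 CPM (122 to 127), and Ccl12 at 1241 CPM (1229 to 1253) and 1204 CPM (1196 to 1212). Their log2 ratios of -0.11 and -0.04 were within the shift between scalings, and both turned positive with DESeq2 size factors.

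Ccl3 was at 3550 CPM (3530 to 3571) in the vehicle library and 3175 CPM (3162 to 3188) in the corticosterone library, a log2 ratio of -0.16. Its neighbour Ccl4 was at 3871 CPM (3850 to 3893) and 4127 CPM (4112 to 4142), a log2 ratio of 0.09. Neither reached 1.5 times. Ccl5, known as a target of interferon signalling and as a product of lymphocytes, was rare, with 131 UMIs in all vehicle microglia-like cells (4.00 CPM, 3.34 to 4.74) and 519 UMIs in the corticosterone cells (7.31 CPM, 6.69 to 7.96). Its log2 ratio of 0.87 (0.59 to 1.16) rested on 1 small cluster and turned to -0.70 (-1.07 to -0.33) without it, as described below.

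Ccl6 and Ccl9, rodent ligands of Ccr1, were the members that were lower. Ccl6 stood at 137 CPM (133 to 141) in the vehicle library and 60.1 CPM (58.3 to 61.9) in the corticosterone library, a log2 ratio of -1.19 (-1.25 to -1.13). Ccl9 had 135 CPM (131 to 139) in the vehicle library, 3.93 times the 34.2 CPM (32.9 to 35.6) of the corticosterone library. Its log2 ratio was -1.98 (-2.05 to -1.90). Ccl9 ranked 31 and Ccl6 ranked 128 from the lowest of the 9678 ratios. The ratios of Ccl6 ranged from -1.54 to -0.74 and those of Ccl9 from -2.08 to -1.69 over the 12 alternatives.

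For Ccl6, Ccl9 and Ccl12 the RefSeq promoter table (GRCm38.p6) gave the 250 bases before the start of the gene. They are shown because Ccl6 and Ccl9 were lower together and because Ccl12 was concentrated in the interferon-led cluster described below. Capitals mark every match, on either strand, to the letters searched: GGG and CC with any 5 bases between them for NF-kB, GAAA and GAAA with any 2 bases between them for an interferon-stimulated response element, TGANTCA for AP-1, AGAACA and TGT with any 3 bases between them for a glucocorticoid response element, AGGAAG for PU.1, the myeloid factor, and TATAAA for a TATA box.
Ccl6 chr11:83593088-83593337, minus strand: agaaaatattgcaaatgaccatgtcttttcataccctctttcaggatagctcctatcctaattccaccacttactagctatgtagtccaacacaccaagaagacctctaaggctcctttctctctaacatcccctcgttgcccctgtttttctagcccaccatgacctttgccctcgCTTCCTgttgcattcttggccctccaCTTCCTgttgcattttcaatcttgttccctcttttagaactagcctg
Ccl9 chr11:83578637-83578886, minus strand: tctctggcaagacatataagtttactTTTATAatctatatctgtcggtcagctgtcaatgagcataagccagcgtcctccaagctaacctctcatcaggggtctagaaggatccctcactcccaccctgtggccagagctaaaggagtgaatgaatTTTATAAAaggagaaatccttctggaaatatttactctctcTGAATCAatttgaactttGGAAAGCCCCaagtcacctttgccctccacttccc
Ccl12 chr11:82101595-82101844, plus strand: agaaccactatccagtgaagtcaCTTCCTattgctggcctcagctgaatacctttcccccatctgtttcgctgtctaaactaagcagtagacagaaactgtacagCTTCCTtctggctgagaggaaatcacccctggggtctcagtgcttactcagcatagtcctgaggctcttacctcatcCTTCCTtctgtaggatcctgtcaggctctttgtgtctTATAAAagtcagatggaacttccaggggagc

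The Ccl6 window held PU.1 letters at -73 and -47 bases from the start, and the Ccl12 window at -227, -145 and -68, in each case on the other strand. Such letters occur in 29.5% of 32851 promoter windows of this length. The Ccl9 window held AP-1 letters at -53, which 6.75% of the windows have, NF-kB letters at -35, which 45.8% have, and TATA letters at -224 and, overlapping on both strands, at -94 and -92. Ccl12 held TATA letters at -31, a motif in 12.4% of windows. The interferon letters (2.98% of windows) and the glucocorticoid letters (0.368%) were in none of the 3 windows, nor in that of Ccl3, the other member in the table, which held no match at all. The longest run shared by the Ccl6 and Ccl9 windows was 13 bases. A match of letters does not show a bound site, and an absent match says nothing of the factor.

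The microglia-like class was made of clusters 0, 1, 2 and 5, and the members differed between them. Cluster 5 was led by interferon-induced genes such as Ifit1, Ifit2 and Ifit3, with 41 vehicle and 703 corticosterone cells, and Ccl12 stood there at 7570 CPM (7130 to 8031) and 7857 CPM (7768 to 7945). In cluster 0 Ccl12 was at 1541 CPM in the vehicle library and at 942 CPM in the other, in cluster 1 at 1217 and 645 CPM, and in cluster 2 at 616 and 332 CPM. Thus Ccl12 was lower in the corticosterone library in clusters 0, 1 and 2 and at a like level in cluster 5, while its level over the class barely differed. Cluster 5 held 2.71% of the vehicle and 35.5% (35.2 to 35.8%) of the corticosterone Ccl12 UMIs. Without it, Ccl12 was at 1213 and 821 CPM, a log2 ratio of -0.56 (-0.58 to -0.54).

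Ccl5 of the corticosterone library lay mostly in the same cluster. Cluster 5 held 14.5% of its vehicle UMIs and 72.6% (68.6 to 76.4%) of its corticosterone UMIs, at 130 CPM (78.5 to 204) and 97.5 CPM (87.9 to 108). Without that cluster Ccl5 stood at 3.43 CPM (vehicle) and 2.11 CPM (corticosterone), so the direction over the class rested on the cluster. The value without it draws in turn on 34 of the 131 vehicle UMIs that lay in the 145 vehicle cells of cluster 0, at 66.1 CPM (45.8 to 92.4) against 2.23 CPM (1.84 to 2.66) in corticosterone, so no direction of Ccl5 was read. The other ratios moved little without it, from 0.86 to 0.83 for Ccl2 and from -1.98 to -2.02 for Ccl9.

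**Figure D2:**
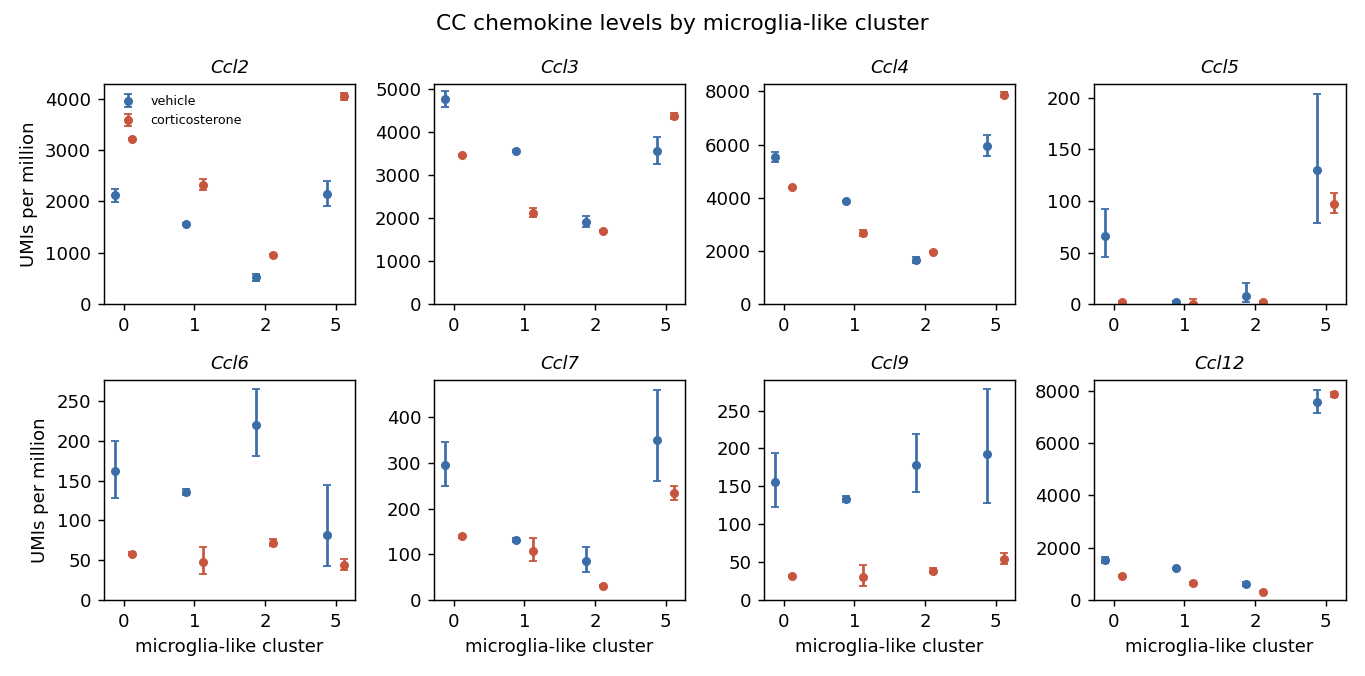
Level of each CC chemokine, in CPM, in the 4 microglia-like clusters of the vehicle (blue) and corticosterone (red) libraries, with exact Poisson intervals at the 95% level. Ccl2 is higher and Ccl9 lower in the corticosterone library in each of the 4 clusters, and Ccl12 is highest in cluster 5 of both libraries.

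Ccl2 was higher in the corticosterone library in each of the 4 clusters, from 522 to 966 CPM in cluster 2, from 1564 to 2329 CPM in cluster 1, from 2116 to 3213 CPM in cluster 0 and from 2148 to 4046 CPM in cluster 5. Ccl9 was lower in each, with 133 to 192 CPM in the vehicle and 31.0 to 54.6 CPM in the corticosterone clusters. Ccl6 intervals overlapped in cluster 5, at 82.4 CPM (42.6 to 144) and 44.5 CPM (38.1 to 51.7), and were apart in clusters 0, 1 and 2. Clusters 0 and 1 were each almost wholly of 1 library (145 of the 10315 cells of cluster 0 were vehicle and 188 of the 7646 cells of cluster 1 were corticosterone), so these few cells are no replicate of the comparison. Clusters were drawn on the same cells, and their sizes were not compared between libraries.

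Detection per cell was compared after each microglia-like cell had been thinned to 1000 UMIs, which left 7336 vehicle and 15111 corticosterone cells and dropped 590 and 95 shallower ones. In the vehicle library 51.3% of them had Ccl2 (exact binomial interval 50.2 to 52.5%), and in the corticosterone library 61.3% (60.5 to 62.1%), or 70.2% and 79.4% without thinning. Erythroid cell-like barcodes, called the background below, had Ccl2 in 40.0% (31.3 to 49.1%) and 57.6% (46.4 to 68.3%). Their median depth was 2530 and 3970 UMIs before thinning against 3188.5 and 3999 in microglia-like cells. The vehicle share of Ccl2 was above that background and the corticosterone share was not. Those barcodes also held the microglia markers at a median of 0.776 and 0.852 times the microglia-like level, so they were not free of microglial transcripts. They numbered only 125 and 85 after thinning. A share within their interval therefore does not show that microglia-like cells lacked the gene. In neutrophil-like cells, with 0.544 and 0.356 times that level of the markers, Ccl2 was found in 34.4% (29.4 to 39.8%) and 27.9% (23.5 to 32.6%), under both microglia-like shares.

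Cells with Ccl6 made up 11.1% (10.4 to 11.8%) of the thinned microglia-like cells of the vehicle library and 5.79% (5.42 to 6.17%) of those of the corticosterone library, against 3.20% (0.879 to 7.99%) and 11.8% (5.79 to 20.6%) of erythroid cell-like barcodes and 31.5% and 20.9% of cells without thinning. For Ccl9 the shares were 10.6% (9.87 to 11.3%) and 3.30% (3.02 to 3.59%), against 8.00% (3.90 to 14.2%) and 4.71% (1.30 to 11.6%), and 29.9% and 11.8% without thinning. Of these 4 shares only that of Ccl6 in vehicle cells was above the background interval, so no difference was read from the shares of Ccl9. Ccl12 was found in 51.4% (50.2 to 52.5%) and 35.9% (35.1 to 36.6%), against 42.4% (33.6 to 51.6%) and 28.2% (19.0 to 39.0%), and 73.2% and 60.6% without thinning, with neither share above the background interval. Ccl3 was found in 76.9% and 67.7% (background 66.4% and 63.5%, unthinned 89.0% and 83.7%) and Ccl7 in 8.49% and 6.49% (background 7.20% and 8.24%, unthinned 18.0% and 13.7%). For Ccl4, at 76.0% and 71.4% (background 68.8% and 63.5%, unthinned 89.0% and 87.3%), the share went against the CPM and no order was read. Ccl5 was found in 12 of 7336 and 44 of 15111 cells, 0.164% and 0.291%, against 0.505% and 0.697% without thinning and 0 of 125 and 0 of 85 background barcodes, which at 3 counts allows shares of up to 2.40% and 3.53%.

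UMIs of Ccl12 were spread more unevenly over the corticosterone cells. Its Fano factor (variance over mean of the UMIs of thinned cells) was 3.50 in the vehicle and 10.1 in the corticosterone library, rank 7 of 3312 and rank 2 of 3304 genes found in at least 5% of cells. The 10% of cells with most Ccl12 held 48.1% of its UMIs in vehicle and 67.4% in corticosterone, and the highest cell had 47 and 80 of its 1000 UMIs in Ccl12. Ccl4 ranked 3 in both libraries, with 5.38 and 6.98, Ccl3 ranked 4 and 5, and Ccl2 ranked 6 and 4. Ccl6 stood far from these, at 1.25 and 1.08, close to the value of 1 that pure counting gives.

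In the vehicle library 62.1% (60.9 to 63.2%) of these cells held at least 3 of the 8 genes, and in the corticosterone library 53.2% (52.4 to 54.0%), a difference of -8.83 percentage points (-10.2 to -7.45). Erythroid cell-like barcodes reached it in 48.0% (39.0 to 57.1%) and 47.1% (36.1 to 58.2%), and neutrophil-like cells in 46.0% and 22.8%. The vehicle share was above the erythroid interval and the corticosterone share was within it. As those barcodes held the microglia markers too, this does not show that the corticosterone share was background. Without thinning the shares in microglia-like cells were 85.5% and 81.2%. Cells without any member made up 2.89% (2.52 to 3.30%) and 6.70% (6.31 to 7.11%), and 7 members in 6 vehicle cells and 0 corticosterone cells. So the typical cell of either library held 3 of the 8 genes, while more cells of the corticosterone library held few of them.

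**Figure D3:**
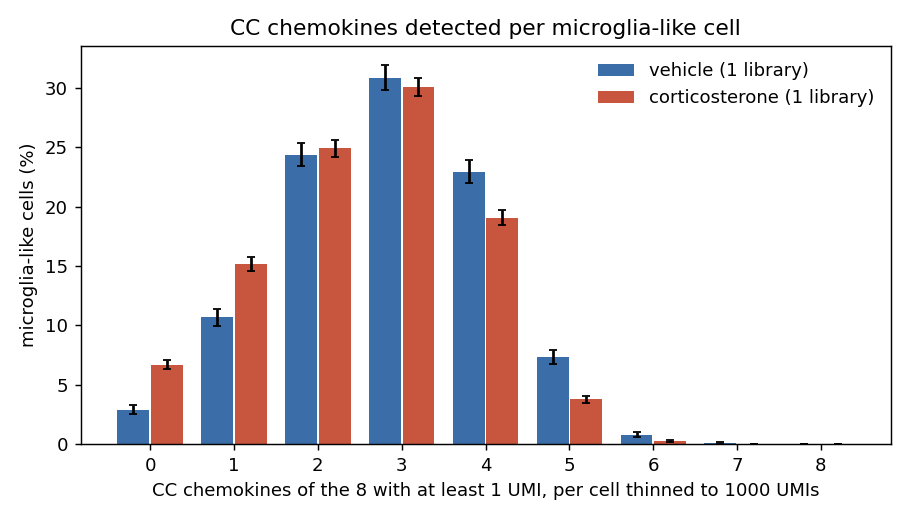
Share of microglia-like cells, each thinned to 1000 UMIs, by how many of the 8 CC chemokines had at least 1 UMI, in the vehicle (blue, 7336 cells) and corticosterone (red, 15111 cells) libraries, with exact binomial intervals at the 95% level. Cells with 3 are the most common in both, at 30.9% and 30.1%, and cells with 0 or 1 take a larger share in the corticosterone library.

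Within a library the members were found together somewhat more often than independent detection gives. Over the 28 pairs the median ratio of observed to expected co-detection was 1.05 in vehicle, with 22 pairs above 1, and 1.14 in corticosterone cells, with 23 above 1. Ccl3 and Ccl4, which lie 13.229 kb apart, had the highest phi coefficient (the correlation of 2 yes-or-no values), 0.194 and 0.308, and were found together in 61.9% and 54.8% of cells against 58.4% and 48.3% expected. Ccl2 and Ccl7, 8.259 kb apart, were found together at 1.44 times (1.32 to 1.58) and 1.42 times (1.33 to 1.52) the rate of independent detection, and Ccl7 with Ccl12 1.22 times (1.10 to 1.34) and 1.43 times (1.31 to 1.56). Ccl2 with Ccl12 gave 1.13 and 1.19. Cells of 1 library share its free RNA, so these are descriptions.

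For Ccl6 and Ccl9 the relations were weak. Their phi coefficients with the other members found in over 1% of cells lay between -0.0217 and 0.0266 in both libraries, and with each other they were found together close to the rate of independent detection, with intervals of the ratio from 0.802 to 1.23 and from 0.788 to 1.61. Ccl6 with Ccl7 gave 0.96 (0.74 to 1.21) and 0.72 (0.52 to 0.98). Ccl9 with Ccl12 gave 0.97 (0.88 to 1.07) and 1.19 (1.04 to 1.36), so in corticosterone cells 1 pair was found together less often and 1 more often than independent detection gives.

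**Figure D4:**
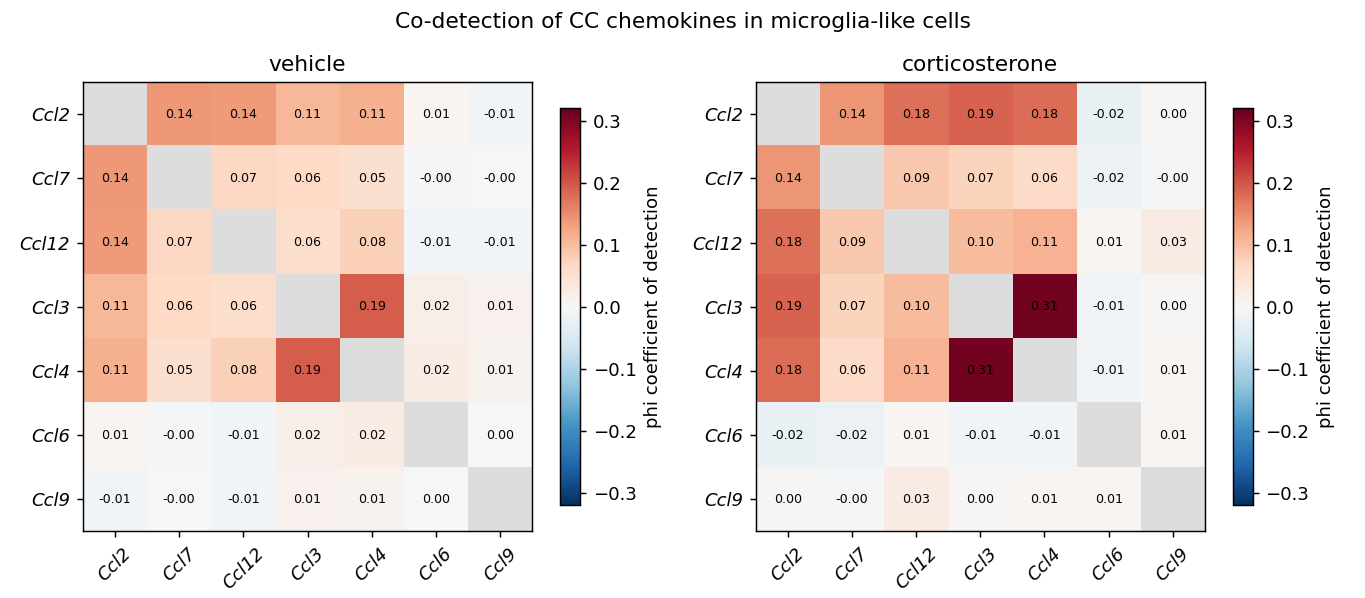
Phi coefficient of detection for each pair of 7 CC chemokines in microglia-like cells thinned to 1000 UMIs, in the vehicle (left) and corticosterone (right) libraries, with Ccl5 left out because it was found in under 1% of cells. Ccl3 and Ccl4 give the highest values, 0.19 and 0.31, and the rows of Ccl6 and Ccl9 lie near 0.

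Of 2892 genes that are no members and were found in at least 5% of cells of both libraries, the same few were most like several members by mean phi. Ier3, an early-response gene, was the closest to Ccl2 (0.172), Ccl3 (0.115), Ccl4 (0.130) and Ccl12 (0.107). Tnf, the cytokine tumour necrosis factor, was among the closest 3 for Ccl2 (0.148), Ccl3 (0.102), Ccl4 (0.105) and Ccl7 (0.0771). So was Nfkbiz or Nfkbia, genes of the NF-kB pathway, for Ccl2, Ccl3, Ccl4 and Ccl12 (0.101 to 0.135). For Ccl7 the closest was Rcan1, an inhibitor of calcineurin (0.0826), and the third was Egr2 (0.0691). The closest genes of Ccl5 (H2-T23, Epsti1 and March5), Ccl6 (H2-DMa, Lmo4 and Hint1) and Ccl9 (Gadd45gip1, Ddx18 and Mob1a) reached at most 0.0293, which in counts this sparse is no finding.

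Outside the microglia-like class, each level was set against that of microglia-like cells of the same library, beside the 10 microglia markers measured in the same way. Border-associated macrophage-like cells (1029 and 797) held the microglia markers at a median of 0.811 and 0.651 times the microglia-like level. Ccl7 was 9.92 and 6.49 times the microglia-like level there, at 1328 CPM (1306 to 1351) and 807 CPM (786 to 829), and was found in 37.8% and 26.9% of thinned cells (57.3% and 46.3% unthinned) against 8.49% and 6.49% in microglia-like cells. Ccl2 (1.57 and 1.14 times) and Ccl12 (1.31 and 1.24 times) were somewhat above, and Ccl3 and Ccl4 between 0.688 and 0.918 times. In all, 4 members (Ccl2, Ccl6, Ccl7 and Ccl12) were above the microglia-like level in vehicle, and 5 in corticosterone, with Ccl9 added. For Ccl6 in vehicle the ratio was 1.05 times, with counting intervals that overlap (136 to 151 CPM against 133 to 141 CPM). So Ccl7 was the member that set these macrophages apart from microglia-like cells in both libraries.

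Between libraries, 0 of the 7 members with at least 5 CPM in the macrophage-like cells were higher in corticosterone by at least 1.5 times, where 7.33% of all genes were, and 2 were lower, Ccl7 (log2 ratio -0.72, -0.76 to -0.67) and Ccl9 (-0.86, -1.01 to -0.70), where 7.12% were. Ccl2 was 1.33 times higher, from 2443 to 3241 CPM, and Ccl6 went from 143 to 117 CPM. The macrophage-like class took 9.80% of the vehicle and 4.46% of the corticosterone cells, and over all filtered cells together the log2 ratio of Ccl7 was -1.18, against -0.11 within the microglia-like class.

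Neutrophil-like cells (431 and 398) differed in Ccl6. It stood at 761 CPM (725 to 799) and 1034 CPM (993 to 1076), 5.56 and 17.2 times the microglia-like level, and was found in 44.2% and 55.8% of thinned cells (54.1% and 72.9% unthinned). Ccl2, Ccl3, Ccl4 and Ccl12 were at 0.589 to 0.761 times the microglia-like level in vehicle and 0.325 to 0.425 times in corticosterone, beside 0.544 and 0.356 times for the microglia markers. In vehicle these 4 members stood above the marker median of 0.544 and above the highest single marker, at 0.582. In corticosterone Ccl2 (0.375) and Ccl12 (0.425) stood above the highest single marker, at 0.357. Ccl3 (0.325) and Ccl4 (0.344) lay under the marker median of 0.356. Ccl6 stood far above the markers in both libraries. The part of microglial RNA in the levels of the 4 members was not tested. Of 7 members with at least 5 CPM, 5 were lower in the corticosterone library (Ccl3, Ccl4, Ccl7, Ccl9 and Ccl12), where 20.3% of all genes were, and 0 were higher, where 8.74% were. Cluster 7, with granule genes such as Camp and Ltf, held 233 of the vehicle cells, and cluster 6, led by genes of mature neutrophils such as Cxcr2, held 274 of the corticosterone cells. Ccl6 lay in cluster 6, at 1303 and 1802 CPM (log2 ratio 0.47, 0.37 to 0.56), against 121 and 115 CPM in cluster 7 (-0.08, -0.45 to 0.29).

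**Figure D5:**
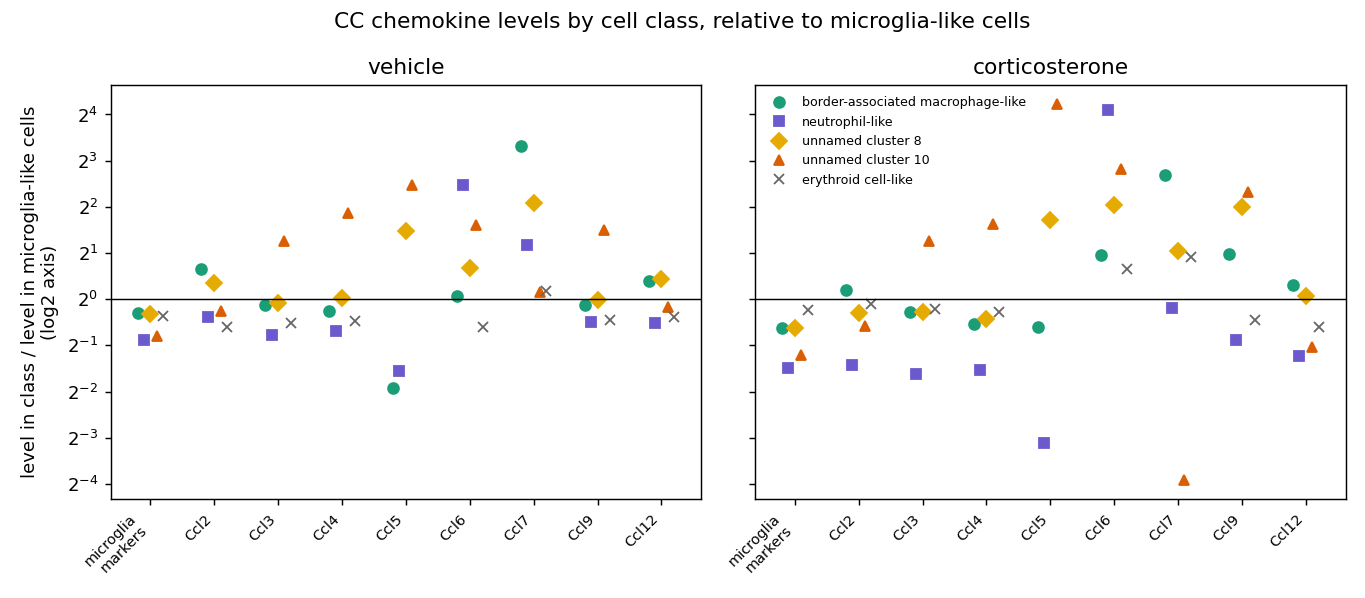
Level of the microglia markers (median of Sall1, P2ry12, Tmem119 and Siglech) and of each CC chemokine in 5 other classes or unnamed clusters. Each is divided by the level in microglia-like cells of the same library, on a log2 axis, for vehicle (left) and corticosterone (right). Members at 0 UMIs are not drawn. Ccl7 in macrophage-like cells, Ccl6 in neutrophil-like cells, and Ccl3 and Ccl4 in cluster 10 lie above the line at 1 in both libraries, while the microglia markers lie below it.

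A small unnamed cluster of 61 vehicle and 55 corticosterone cells, cluster 10, was led by Lpl and Spp1. At Leiden resolution 1.0 a cluster of 188 cells led by Lpl and Nes was named microglia-like by the same rule. The lack of a name thus depended on the setting, and cluster 10 is not shown to lie outside microglia. Ccl3 was at 8461 CPM (8144 to 8788) and 7568 CPM (7288 to 7856) there, and Ccl4 at 14201 CPM (13789 to 14622) and 12800 CPM (12435 to 13173), which is 2.38 times for Ccl3 in both libraries and 3.67 and 3.10 times for Ccl4 over microglia-like cells. Both genes were found in at least 94.5% of its thinned cells and in at least 98.4% without thinning. Ccl6 was at 420 and 423 CPM and Ccl9 at 382 and 170 CPM, above microglia-like cells in both libraries. Ccl7 had 47 UMIs in the vehicle and 3 in the corticosterone cells (log2 ratio -4.17, -6.50 to -2.54). Of the 8 members, 1 was higher in corticosterone (Ccl5, from 7 to 50 UMIs), where 21.9% of all genes were, and 3 were lower (Ccl7, Ccl9 and Ccl12), where 24.6% were.

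Unnamed cluster 8 (198 and 90 cells), led by genes of MHC class II and Ccr2, held Ccl7 at 571 and 258 CPM, 4.26 and 2.07 times the microglia-like level. There, 1 member was higher in corticosterone (Ccl5, 14.4% of all genes) and 1 was lower (Ccl7, 16.9%). Erythroid cell-like barcodes (153 and 87) had 2 members higher (Ccl2 and Ccl7, 24.2%) and 1 lower (Ccl9, 18.3%), and unnamed cluster 4 (614 and 1164), of low UMI count, had 1 higher (Ccl2, 12.8%) and 2 lower (Ccl6 and Ccl9, 12.1%). The microglia markers in these 3 groups were at 0.648 to 0.852 times the microglia-like level. The direction of Ccl2 and Ccl9 in microglia-like cells was thus also seen in the erythroid cell-like and cluster 4 barcodes.

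Other genes of the pathway were taken from 6 lists in microglia-like cells. Of 16 other CC ligands only Ccl24, an eosinophil attractant, reached 5 CPM, at 9.67 and 9.16 CPM. Among the CC receptors and scavengers, Ccrl2, an atypical receptor that binds chemerin, went from 288 to 246 CPM (a log2 ratio of -0.23). Ccr1, the receptor of Ccl6 and Ccl9, went from 9.76 to 0.507 CPM (-4.27). It passed the minimum only through the vehicle library, where it was high, and was named after its value was seen. Ccr2, the receptor of Ccl2, Ccl7 and Ccl12, was at 4.46 and 2.56 CPM, under the minimum.

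Of 8 cytokines and other genes commonly induced with these chemokines, 5 were higher in corticosterone and 0 lower, with a median log2 ratio of 0.89 against -0.01 over all genes tested. Of all genes tested 6.01% were higher and 6.48% lower, and the counts of the lists that follow stand beside the same shares. Il1b, interleukin 1 beta, had the highest ratio, from 27.7 to 290 CPM (3.39), and Cd83 the lowest, from 339 to 349 CPM (0.04). The other 4 counted as higher, named after their values were seen, were Cxcl2 (1.81), Cxcl16 (1.26), Cxcl10 (1.11) and Il1a (0.68), while Tnf at 438 and 631 CPM (0.53) and Gadd45b (0.09) were, like Cd83, under 1.5 times. Of 11 genes of the NF-kB pathway 2 were higher, Nfkb2 (0.64, from 31.1 to 48.5 CPM) and Bcl3 (1.39, from 8.12 to 21.3 CPM). Only 1 was lower, Rel (-0.62, from 89.4 to 58.1 CPM), and the list median was -0.01. Of 6 genes listed for the turnover of chemokine mRNA 0 were higher and 1 was lower, Zfp36l1 (-0.78, from 944 to 551 CPM). Dusp1 had the highest ratio (0.45), and the list median was -0.08.

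Early-response and dissociation genes moved both ways beside the chemokines. Of 15 such genes 2 were higher in corticosterone, Ier3 (0.66, from 1671 to 2632 CPM) and Hspa1b (0.79, from 3.69 to 6.41 CPM, which passed the minimum only through the corticosterone library), and 4 were lower, Klf2 (-1.60, from 480 to 159 CPM), Nr4a1 (-1.51), Fosb (-0.86) and Atf3 (-0.84). All 15 were found in both libraries, at a summed 41700 and 36434 CPM, and the list median was -0.19. Their part in the chemokine levels was not tested.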

How the data were processed

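The authors deposited raw UMI counts per gene and barcode for 1 vehicle and 1 corticosterone library; per the submitters' processing notes the build was GRCm38 and reads were demultiplexed with bcl2fastq 2.19, while the aligner, annotation and cell calling are not given in the sources used here. Each file was assigned to its group by the sample record that lists it, although file names use other words (wild type, depression) than the labels. The members, lists and alternatives were chosen with earlier results of these data known.

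Barcodes under 500 UMIs or 300 genes, or above 20% mitochondrial UMIs, were removed. Both libraries were clustered together in scanpy 1.11.5 on 2000 variable genes without Ccl genes, 30 components and 15 neighbours, with Leiden (leidenalg 0.10.2) at resolution 0.5. Clusters took the name of a class (X-like) if 3 or more markers of it were in 10% of their cells at 2 times the level of other cells of the same library. Failing this they were named microglia-like if 3 or more microglia markers reached a geometric mean of 0.5 times that of all cells and no other class led. No name was given where another class led the 10 top genes, or where the relative median UMI count was under 33.3% with no own marker among them. These naming thresholds were set after seeing the data. Scrublet called 0 and 0 cells, so it did not work and no doublet was removed.

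UMIs were summed per class and library and scaled to 1e6 (CPM). A gene was counted as higher or lower at 1.5 times or more with a mean of at least 5 CPM. Intervals are exact at the 95% level (Poisson for levels, Clopper-Pearson for shares and ratios). A count of 0 is given an upper limit of 3 counts. Named genes were all 8 members, the highest and lowest ratio of each list at a mean of at least 20 CPM, and the 3 genes with the highest mean phi per member, leaving out mitochondrial, ribosomal and predicted genes. The calls and thinning were tested on simulated data. Alternatives used edgeR 4.0.16 and DESeq2 1.42.0 factors, among others. Endothelial cell-like cells (41 and 25) were not described, and the count over the list of CC receptors is not reported here. Promoters came from RefSeq, where 4 of 8 members matched (Ccl3, Ccl6, Ccl9 and Ccl12; not Ccl2, Ccl4, Ccl5 and Ccl7), and coding sequences from GENCODE transcripts.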

Additional observations from a re-analysis of the deposited data

Results flagged for a closer look

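Ccl6 was lower in the corticosterone library in microglia-like cells and higher in neutrophil-like cells, with intervals on opposite sides of 0. The log2 ratio was -1.19 in the former and 0.44 in the latter, a gap of 1.63, and the difference was not tested because each group had 1 library. The gap was present in neutrophil cluster 6, where the ratio was 0.47, while in cluster 7 it was -0.08 with an interval from -0.45 to 0.29.

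Ccl2 went the other way, at 0.86 in microglia-like cells and -0.15 in neutrophil-like cells, a gap of -1.02 that was likewise not tested. Its difference in neutrophil-like cells was also under 1.5 times. The neutrophil-like cells held the microglia markers at 0.544 times the microglia-like level in vehicle and 0.356 times in corticosterone, and the part of this in the Ccl2 value was not tested.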

How the results depend on the processing

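No paired analysis was possible because there is 1 library per group. The 2 members counted as higher became 1 with the rule per cell, with the mean of per-cell CPM, with a minimum mean of 20 CPM and without the interferon-led cluster (an alternative chosen after seeing the data), and 0 with a fold of 2 times, while the count of lower members was 2 in every alternative run except over all filtered cells and over all deposited barcodes, where Ccl7 made it 3, and with the rule per cell, where Ccl5 did. The log2 ratio of Ccl5 turned to -2.78 with the rule per cell and to -0.70 without the interferon-led cluster. The difference in the share of cells with 3 or more members, -8.83 points, was -10.6 over all filtered cells, -14.7 with the rule per cell (369 and 470 cells), -12.3 with thinning to 2000 UMIs and -4.23 without thinning. The other pathway genes, 9 higher and 8 lower, became 14 and 18 with no filter on low counts and 5 and 4 with a fold of 2 times. Apart from fewer or more genes passing a filter or fold, the cause of these changes was not tested. The median co-detection ratio moved within the spread over pairs, was no longer higher in corticosterone without thinning (1.10 in vehicle and 1.09 in corticosterone), and could not be computed for corticosterone cells with the rule per cell because a member was not found. DESeq2 size factors raised the share of higher genes among all genes counted from 48.1% to 65.3%. Removing the 6% of cells with the highest doublet score changed no count. Depth limits Ccl5, read from 131 and 519 UMIs, and the small classes; with 1 library per group, treatment and library cannot be told apart.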

Other observations

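A monocyte-like cluster of 30 vehicle and 59 corticosterone cells held the receptor of the Ccl2 group and the ligands Ccl6 and Ccl9. Ccr2 stood there at 546 and 743 CPM, against 4.46 and 2.56 CPM in microglia-like cells. Ccl6 was at 779 CPM (644 to 934) and 1355 CPM (1255 to 1461), and Ccl9 at 246 CPM (173 to 340) and 528 CPM (466 to 595), both higher in the corticosterone library where microglia-like cells had less of them. Ccl12 was lower there by at least 1.5 times, from 652 to 270 CPM (log2 ratio -1.27, -1.66 to -0.88). Ccl7, at 15 and 32 UMIs, was also lower, with a wide interval (-0.63, -1.56 to 0.36). The class had fewer than 50 vehicle cells, so no share over all genes stands beside these values. Its median depth was 2767 UMIs in vehicle and 7375 in corticosterone. The microglia markers were at 0.554 and 0.234 times the microglia-like level in these cells.

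Ccr1, the receptor of Ccl6 and Ccl9, was highest in neutrophil-like cells among the classes with at least 50 cells in both libraries, at 180 and 287 CPM, and in border-associated macrophage-like cells was at 95.1 and 28.6 CPM.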
